A study of Mus musculus with 4 samples.

Results

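The transcripts of 10 ion and water transporters of the colon were followed in mouse colonoid cultures given butyrate. They were taken by symbol from a count table of 36144 gene names: the apical exchangers and channel *Slc26a3*, *Slc9a2*, *Slc9a3* and *Scnn1a*, the water channels *Aqp4* and *Aqp8*, the proton pump *Atp12a*, and the secretory genes *Slc12a2*, *Cftr* and *Kcnq1*. All 10 were in the table. Colonoids are epithelial structures grown in a gel from colonic crypts, and hold stem cells beside the cells they give rise to. The labels give a WT male mouse aged 24 weeks as their source, whereas the study names 1 Hes1-GFP reporter mouse as the source of these cultures and, in its methods, mice of either sex and crypts of the proximal colon. The strain is not given in the sources used here. All cultures, untreated ones included, were kept in a crypt medium with EGF, Noggin, R-spondin, the GSK3 inhibitor CHIR99021 and the kinase inhibitor Y-27632, a mix that favours crypt growth over differentiation. They were left untreated or given 2 mM sodium butyrate, and RNA was sequenced at 48 h (labelled day 2) and 72 h (labelled day 3), each of the 4 conditions being 1 library.

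The colonic surface takes up salt and water from the lumen. Apical sodium-proton exchangers work beside the chloride-bicarbonate exchanger *Slc26a3*, so that sodium chloride enters the cell without net charge, and the sodium channel ENaC adds a current-carrying route. Secretion runs the other way in the crypt, where a basolateral cotransporter loads the cell with chloride, a basolateral potassium channel keeps the driving force and the chloride channel CFTR opens in the apical membrane. Butyrate, made by gut bacteria, is a main fuel of colonic epithelial cells and an inhibitor of histone deacetylases.

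Starts of *Slc26a3* and *Slc9a3* are shown because these absorptive genes had the highest 48 h log2 fold changes of the 10 transporters. The windows are 300 bases of RefSeq sequence on build GRCm38.p6, from 250 bases before to 50 bases after the annotated start. RefSeq windows were used for 4 of the 10 genes. The *Slc26a3* window is chr12:31437969-31438268 on the plus strand and lies within the longer gene model of GENCODE M21, and the *Slc9a3* window is chr13:74121163-74121462 on the plus strand. Capitals mark the motif letters that were found on either strand.
Slc26a3: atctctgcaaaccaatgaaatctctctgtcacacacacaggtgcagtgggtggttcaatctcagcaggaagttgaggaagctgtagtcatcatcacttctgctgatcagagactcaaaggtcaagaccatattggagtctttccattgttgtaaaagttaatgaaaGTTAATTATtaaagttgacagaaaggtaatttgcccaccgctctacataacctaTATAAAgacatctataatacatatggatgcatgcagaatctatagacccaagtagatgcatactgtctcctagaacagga
Slc9a3: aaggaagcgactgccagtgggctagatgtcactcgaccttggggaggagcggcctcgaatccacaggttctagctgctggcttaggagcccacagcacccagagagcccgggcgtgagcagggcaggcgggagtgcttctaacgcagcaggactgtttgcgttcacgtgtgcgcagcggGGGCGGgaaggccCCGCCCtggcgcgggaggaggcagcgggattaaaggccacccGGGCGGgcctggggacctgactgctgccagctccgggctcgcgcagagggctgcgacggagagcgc
The *Slc26a3* window was 39.3% G and C with 1 CG pair. It held the letters GTTAATNAT of the hepatocyte nuclear factor 1 motif at position −84 and the TATA box letters TATAAA at position −30, counted from the start. The *Slc9a3* window was 68.7% G and C with 25 CG pairs and held the GC box letters GGGCGG at 3 positions, −71, −58 (on the minus strand) and −16. The median of 32851 mouse promoter windows was 52.7% G and C, with quartiles of 45.7% and 61.7%. Of those windows, 0.801% held GTTAATNAT, 13.6% TATAAA and 35.7% GGGCGG. The letters TGACGTCA (in 1.79% of windows) and CAAAGTCCA (in 0.475%) were not found in either. The motifs were chosen after the sequences were seen, and a match is a description of these letters only. These genes, which shared a direction at both times, differed in base composition and held different motifs.

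Library totals were between 20790225 and 24207840 counts, and DESeq2 size factors between 0.926 and 1.10. Values below are counts divided by these factors (normalised counts), and log2 fold changes were taken after adding 1 to each. With 1 library per condition there is no replicate error and no comparison was tested, and intervals in parentheses are exact 95% intervals that cover counting error only. The values therefore compare these libraries, and what another culture would give cannot be read from them. The background was formed by the 11652 genes whose normalised counts averaged at least 50, and held 9 of the 10 transporters and not *Atp12a*. All 7 epithelial markers checked (*Epcam*, *Cdh1*, *Vil1*, *Krt8*, *Krt19*, *Cdx1* and *Cdx2*) passed this minimum, and their summed normalised count was between 132578 and 149230 in the 4 libraries. Of 7 markers of other tissues, 6 had at most 58 counts in any library and *Col3a1* had 0 in all 4. The exception was *Kit*, which also marks secretory cells of the deep colonic crypt. *Kit* was lower with butyrate at both times, at log2 fold changes of −0.94 (48 h) and −0.58 (72 h). In RNA from whole cultures, fewer cells of a type and less RNA per cell cannot be told apart.

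In the 48 h pair of libraries, the apical exchangers *Slc26a3*, *Slc9a3* and *Slc9a2* were higher with butyrate. *Slc26a3*, the apical chloride-bicarbonate exchanger, was at 3050.2 normalised counts in the untreated and 7450 in the butyrate library at 48 h, while the 72 h libraries held 4330 and 3778. The butyrate library at 48 h was the high one, and the other 3 lay between 3050.2 and 4330. Its level at 48 h was 2.44 times that of the untreated library (2.34 to 2.55), a log2 fold change of 1.29 (1.23 to 1.35), and 2.60% of background genes had a larger one. At 72 h the log2 fold change was −0.20 (−0.26 to −0.13). The gene lies at chr12:31390871-31473917.

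*Slc9a3* encodes NHE3, the main apical sodium-proton exchanger of the absorptive epithelium, and lies at chr13:74121457-74169442. The untreated libraries held 1399.8 (48 h) and 1719 (72 h) normalised counts, and the butyrate libraries 2277 and 1311. As for *Slc26a3*, the butyrate library was the highest of the 4 at 48 h, and at 72 h it was below the untreated one. The log2 fold change was 0.70 (0.61 to 0.80) at 48 h, with 7.04% of background genes above it, and −0.39 (−0.50 to −0.28) at 72 h.

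*Slc9a2* encodes NHE2, another apical sodium-proton exchanger, and lies at chr1:40680574-40769273. Its normalised count was 2488 and 3006 in the untreated libraries (48 h, then 72 h) and 3256 and 1916 in the butyrate ones. The butyrate library was again the highest at 48 h, and at 72 h it was the lowest of the 4. The log2 fold changes were 0.39 (0.31 to 0.46) and −0.65 (−0.73 to −0.56), and 4.15% of background genes were at or below the latter. *Slc9a2* was the transporter with the lowest log2 fold change at 72 h among the 9 in the background.

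*Scnn1a*, at chr6:125320659-125344943, encodes the alpha subunit of the sodium channel ENaC. Untreated cultures held 686 normalised counts at 48 h and 809.7 at 72 h, and treated cultures 917 and 633. The order of the libraries was that of *Slc9a3*, with log2 fold changes of 0.42 (0.28 to 0.56) and −0.35 (−0.51 to −0.20). The other ENaC subunits were at or near the limit of detection. *Scnn1b* had 6 and 1 counts in the untreated libraries and 8 and 9 in the butyrate ones, and *Scnn1g* had 0 counts in all 4 libraries. As a one-sided limit, a count of 0 allows up to 3 counts, which is 2.72 to 3.24 normalised counts in these libraries, so the beta and gamma subunits of the assembled channel were detected at a few counts or not at all beside at least 586 of the alpha subunit.

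**Figure D1:**
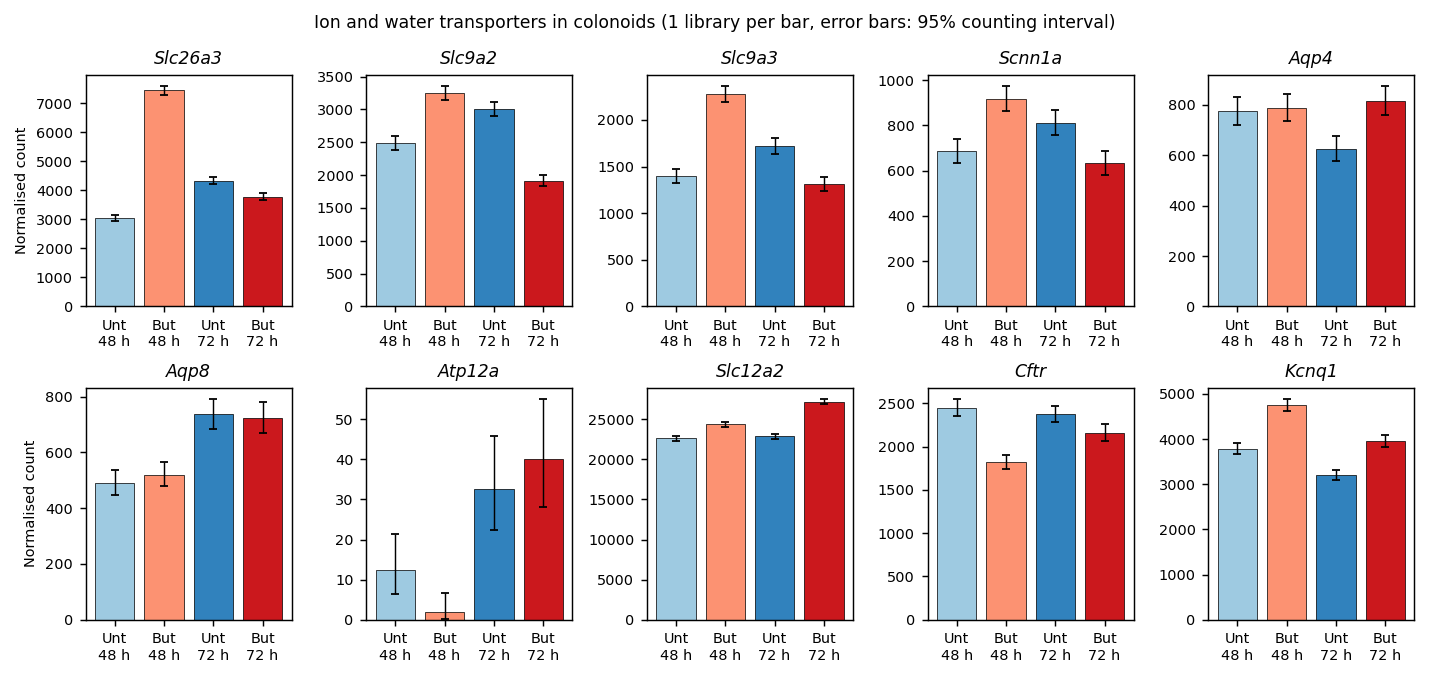
Normalised counts of the 10 transporters in the 4 libraries (Unt, untreated; But, 2 mM butyrate), 1 library per bar, with exact 95% counting intervals as error bars and a separate scale from 0 in each panel. *Slc26a3*, *Slc9a2*, *Slc9a3* and *Scnn1a* were highest with butyrate at 48 h and lower with butyrate than without it at 72 h, whereas *Cftr* was lower with butyrate at both times.

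The water channels gave another picture. *Aqp8*, an apical aquaporin of colonocytes at chr7:123462291-123468004, held 492 normalised counts in the untreated and 519.9 in the butyrate library at 48 h, against 738 and 723 in those at 72 h. It split by time and not by treatment, with log2 fold changes of butyrate over untreated of 0.08 (−0.10 to 0.26) and −0.03 (−0.18 to 0.12). Both intervals included 0, and with scaling by total count the 72 h value was 0.02. *Aqp4*, a basolateral aquaporin at chr18:15389496-15410982, held 776 and 789 in the 48 h libraries and 626 and 817 in the 72 h ones, untreated first. The untreated library at 72 h was the low one of the 4, and the log2 fold changes were 0.02 (−0.12 to 0.17) and 0.38 (0.23 to 0.54).

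*Atp12a*, at chr14:56365068-56388550, encodes the colonic proton-potassium pump, which takes up potassium in exchange for protons. Its counts were low, and under the floor of 3 counts with butyrate at 48 h, with 12 and 33 counts in the untreated libraries (48 h, then 72 h), and 2 and 37 in the butyrate ones. The 48 h ratio of butyrate to untreated was 0.148 (0.016 to 0.664), and the 72 h ratio had an interval that included equal levels, with a log2 fold change of 0.29 (−0.42 to 1.02). It shares 557 bases of exon with *Gm10873* on the opposite strand, and the strand used in counting is not given in the sources used here, so reads of the overlap cannot be told apart.

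Among the secretory genes, *Slc12a2*, the basolateral sodium-potassium-chloride cotransporter NKCC1 at chr18:57878678-57946821, was the steadiest. The untreated libraries held 22621 and 22896 normalised counts (48 h, then 72 h), and the butyrate ones 24357 and 27207. The butyrate library was the higher one at each time, with log2 fold changes of 0.11 (0.08 to 0.13) and 0.25 (0.22 to 0.27). *Kcnq1*, the potassium channel of the basolateral membrane at chr7:143106362-143427042, was also higher with butyrate at each time. The untreated libraries held 3783 and 3212 and the butyrate ones 4759 and 3960.5 normalised counts, and the log2 fold changes were 0.33 (0.27 to 0.39) and 0.30 (0.23 to 0.37).

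*Cftr*, the cAMP-regulated apical chloride channel at chr6:18170687-18322768, went the other way at both times. It was at 2452 and 2374 normalised counts in the untreated libraries (48 h, then 72 h), and at 1823 and 2160.1 in the butyrate ones. The untreated libraries were alike and the butyrate libraries were below them, with log2 fold changes of −0.43 (−0.51 to −0.34) and −0.14 (−0.22 to −0.05). Exons of *Cftr* and *Kcnq1* overlap the antisense genes *Gm15592* and *Kcnq1ot1* by 129 and 121 bases.

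Counted over the transporters, 1 of the 9 in the background (*Slc26a3*) was at least 2-fold higher with butyrate at 48 h, against 3.93% of all background genes, and 0 were at least 2-fold lower, against 1.54%. The counting interval lay above 0 for 6 of them (30.6% of background genes) and below 0 for 1 (35.2%). At 72 h, 0 were at least 2-fold higher or lower, where the background shares were 2.33% and 1.6%. The interval lay above 0 for 3 (*Aqp4*, *Slc12a2* and *Kcnq1*, against 27.7%) and below 0 for 5 (*Slc26a3*, *Slc9a2*, *Slc9a3*, *Scnn1a* and *Cftr*, against 28.6%). The median log2 fold change of the 7 absorptive genes, *Atp12a* included, was 0.39 at 48 h and −0.20 at 72 h. It was 0.11 and 0.25 for the 3 secretory genes, and −0.03 and −0.00 for all background genes.

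**Figure D2:**
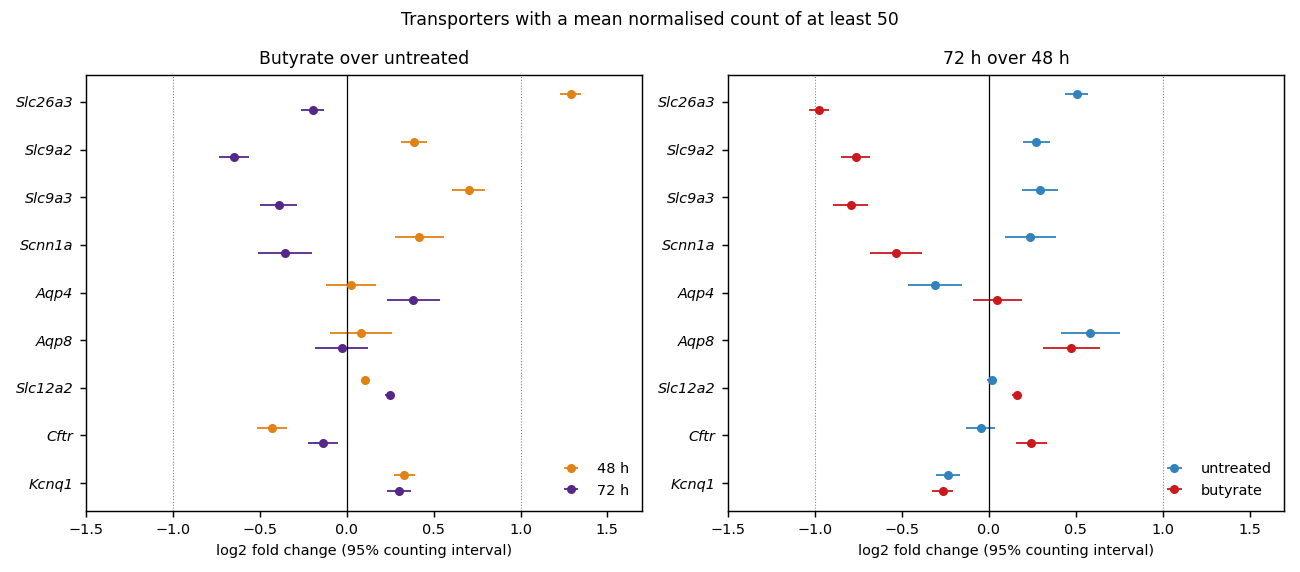
Log2 fold changes of the 9 transporters in the background, for butyrate over untreated at 48 h and 72 h (left) and for 72 h over 48 h in untreated and butyrate-treated cultures (right), with 95% counting intervals and grey lines at 2-fold. *Slc26a3*, *Slc9a2*, *Slc9a3* and *Scnn1a* lie right of 0 at 48 h and left of 0 at 72 h.

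The difference between the log2 fold changes at the 2 times, 72 h minus 48 h, was −1.48 (−1.57 to −1.40) for *Slc26a3*, −1.09 (−1.24 to −0.95) for *Slc9a3*, −1.04 (−1.15 to −0.92) for *Slc9a2* and −0.77 (−0.99 to −0.56) for *Scnn1a*. These 4 were higher at 48 h and lower at 72 h with both intervals clear of 0. A turn in that direction was held by 595 of the 11652 background genes, or 5.11%, and turns the other way are not in this share. The difference was close to 0 for *Kcnq1*, at −0.03 (−0.12 to 0.06), and for *Aqp8*, at −0.11 (−0.34 to 0.12). It was positive for *Slc12a2* at 0.14 (0.11 to 0.18), *Cftr* at 0.29 (0.17 to 0.41) and *Aqp4* at 0.36 (0.15 to 0.57). For *Atp12a*, also absorptive, the interval lay above 0 (0.73 to 6.32), but it rests on 2 counts in the butyrate library at 48 h and its size depends on the pseudocount. Whether the response differed between the times in other cultures was not tested, since each time rests on 1 pair of libraries.

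Markers of differentiated colonocytes moved with this pattern. The summed normalised count of 8 markers (*Car1*, *Car4*, *Ceacam20*, *Cyp2c55*, *Krt20*, *Muc3*, *Saa1* and *Tmigd1*, all in the background) went from 50585 without to 79304 with butyrate at 48 h, and from 63000.1 to 41712 at 72 h. The interval lay above 0 for 7 of the 8 at 48 h (*Saa1* was lower), and below 0 for 6 at 72 h, with *Ceacam20* higher. The background shares of such intervals, 30.6% above and 35.2% below at 48 h and 27.7% and 28.6% at 72 h, apply to each list here, and the goblet counts at 48 h were near them. *Car1*, a carbonic anhydrase that makes up much of the sum, had log2 fold changes of 1.14 and −0.88. The sum of 5 stem cell markers, of which *Olfm4* had at most 24 counts, ran in the opposite direction, from 18204 to 13277 at 48 h and from 12746 to 20830 at 72 h. *Lgr5* was the largest part of the 48 h change, at a log2 fold change of −0.94, and *Ascl2* was higher at 48 h, at 0.19 (0.01 to 0.37). All 4 stem cell markers in the background had intervals above 0 at 72 h. That of 8 goblet cell markers was lower with butyrate at both times, from 114278 to 92979 and from 166285 to 90624. At 48 h most of that was *Muc2* (−0.49), the median of the 8 was 0.00, and 3 intervals lay above 0 (*Tff3* 0.77, *Clca1* 0.61 and *Reg4* 0.23) and 3 below. At 72 h, 6 lay below 0 and *Reg4*, at 1.06, above. The sum of 5 proliferation genes went from 27929 to 29472 (*Mcm5* was lower, at −0.29) and from 27405 to 36763, and that of 5 enteroendocrine markers from 7697 to 9075 and from 9598 to 5246. In the latter list *Chgb*, at 0.40, made most of the 48 h difference, *Neurod1* was lower, at −0.41 (−0.67 to −0.15), and the intervals of the other 3 included 0, whereas all 5 lay below 0 at 72 h. The sum of the 7 epithelial markers went from 142204 to 148628 at 48 h and from 149230 to 132578 at 72 h. Of their intervals, 4 lay above 0 and 2 below at 48 h, and all 7 lay below 0 at 72 h. *Cdh1*, *Krt8*, *Krt19* and *Cdx2* were higher at 48 h and lower at 72 h, with both intervals clear of 0. The part of these marker changes in the transporter values was not tested.

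**Figure D3:**
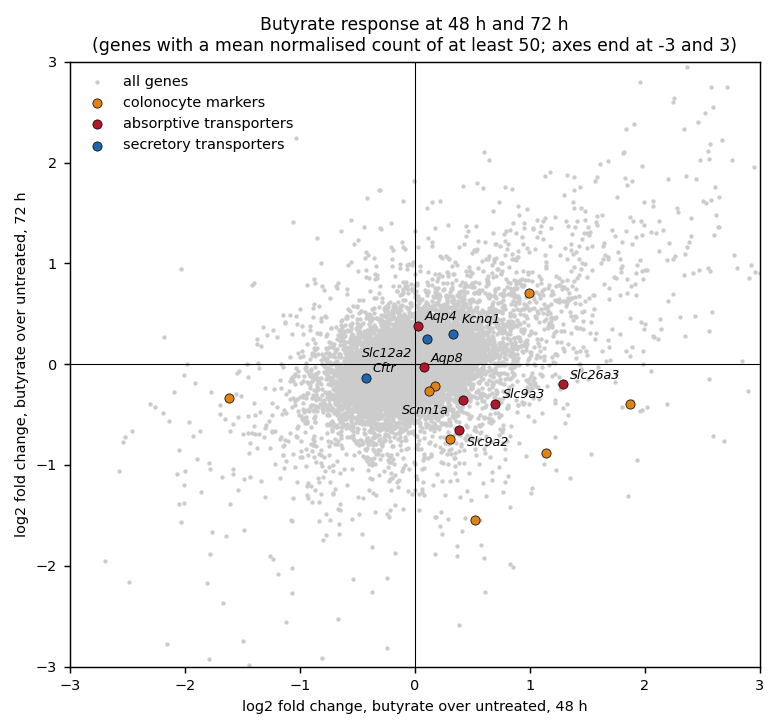
Log2 fold change of butyrate over untreated at 72 h against that at 48 h for the 11652 background genes (grey), with absorptive (red) and secretory (blue) transporters and colonocyte markers (orange). Of all background genes, 17.4% lie in the lower right quadrant, which holds *Slc26a3*, *Slc9a3*, *Slc9a2* and *Scnn1a*, with *Aqp8* at its edge.

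Set along time within a treatment, the same 4 libraries gave the following values, which are not independent of those above. In untreated cultures, the interval for 72 h over 48 h lay above 0 for 5 transporters (24.6% of background genes) and below 0 for *Aqp4* and *Kcnq1* (23.1%). *Aqp8* had the highest of these log2 fold changes among the 9, 0.58 (0.42 to 0.75), followed by *Slc26a3* at 0.51 (0.44 to 0.57). *Slc9a3*, *Slc9a2* and *Scnn1a* were at 0.30, 0.27 and 0.24, and *Aqp4* and *Kcnq1* at −0.31 and −0.24. *Cftr*, at −0.05 (−0.13 to 0.04), and *Slc12a2*, at 0.02 (−0.01 to 0.04), had intervals that included 0, and the sign of the *Slc12a2* value turned with scaling by total count. Of the 9 transporters in the background, 0 reached 2-fold, against 0.755% of background genes higher and 0.841% lower.

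With butyrate, the interval lay below 0 for 5 transporters (33.8% of background genes) and above 0 for 3 (32.9%). *Slc26a3* was at −0.98 (−1.04 to −0.92), *Slc9a3* at −0.80 (−0.90 to −0.70), *Slc9a2* at −0.76 (−0.85 to −0.68), *Scnn1a* at −0.53 (−0.68 to −0.39) and *Kcnq1* at −0.26 (−0.33 to −0.20). *Aqp8*, *Cftr* and *Slc12a2* were at 0.47 (0.31 to 0.64), 0.24 (0.15 to 0.34) and 0.16 (0.13 to 0.18). *Aqp8* and *Kcnq1* thus had the same direction over time with and without butyrate, and the 4 apical sodium and chloride genes had opposite ones. Here too 0 of the 9 reached 2-fold, against 1.66% higher and 2.51% lower. *Atp12a*, outside the background, was more than 2-fold higher at 72 h in both. It went from 12 to 33 counts untreated, a log2 fold change of 1.34 (0.42 to 2.50), and from 2 to 37 counts with butyrate, one of 3.86 (2.51 to 7.56). With a pseudocount of 5 these values became 1.12 and 2.72.

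Ratios of counts within a library need no scaling between libraries. The count of *Slc26a3* over that of *Cftr*, an apical chloride absorber over the apical chloride secretor, was 1.24 (1.18 to 1.31) in the untreated and 4.09 (3.89 to 4.29) in the butyrate library at 48 h. For 72 h it was 1.82 (1.74 to 1.92) and 1.75 (1.66 to 1.85), and these intervals overlap. The ratio of *Slc26a3* to *Slc12a2* was 0.135 (0.130 to 0.140) and 0.306 (0.298 to 0.314) at 48 h, and 0.189 (0.183 to 0.195) and 0.139 (0.134 to 0.144) at 72 h. Of the exchangers, *Slc9a2* over *Slc9a3* was 1.78 (1.66 to 1.90) and 1.75 (1.65 to 1.86) in the untreated libraries, and 1.43 (1.36 to 1.51) and 1.46 (1.36 to 1.57) in the butyrate ones. This last ratio split by treatment at both times, with *Slc9a3* making up more of the pair under butyrate, although each gene turned its direction between the times.

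**Figure D4:**
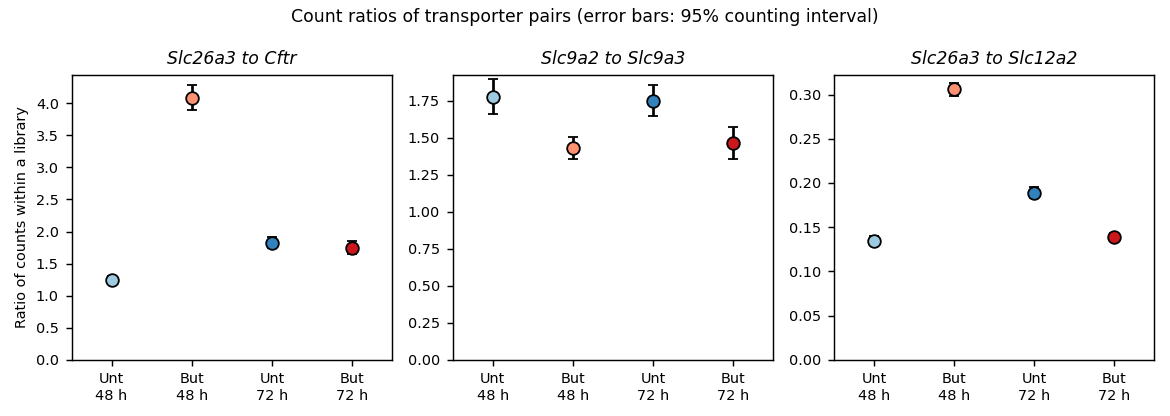
Ratios of counts of transporter pairs within each library (Unt, untreated; But, 2 mM butyrate), with exact 95% counting intervals and axes from 0. The ratio of *Slc26a3* to *Cftr* stands at 4.09 in the butyrate library at 48 h and at 1.24 to 1.82 in the other 3, and that of *Slc9a2* to *Slc9a3* is lower in both butyrate libraries.

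Levels were compared between genes as normalised counts per kb of the union of a gene's exons. *Slc12a2* was the highest in all 4 libraries, at 2072, 2230.5, 2097 and 2492 per kb (untreated and butyrate at 48 h, then at 72 h). *Kcnq1* came next in 3 libraries, at 924, 785 and 968, and at 1163 with butyrate at 48 h, where *Slc26a3* at 1169.7 could not be told apart from it by counting error. *Scnn1a*, *Aqp4* and *Atp12a* were the lowest in this order in every library, at 153 to 222, 100.4 to 131 and 0.452 to 9.95 per kb.

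Between these, *Slc26a3* was at 479 to 1169.7 per kb, *Aqp8* at 311 to 467, *Slc9a2* at 274 to 466, *Slc9a3* at 238 to 414 and *Cftr* at 235 to 316. Neighbours in the order had overlapping counting intervals for *Cftr* and *Aqp8* in the untreated library at 48 h, and for *Cftr* and *Scnn1a* in the butyrate one. The same held for *Aqp8* and *Slc9a2* and for *Slc9a3* and *Cftr* in the untreated library at 72 h, and for *Cftr* and *Slc9a2* in the butyrate one. Among water channels, the untreated libraries held 1.77 and 0.877 times as much *Aqp1* per kb as *Aqp8* at 48 h and 72 h, so the order of these channels turned between the times.

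The order in the middle depends on the length used. With the length of the principal transcript, *Slc26a3* lay ahead of *Kcnq1* by the mean of the 4 libraries. It did so in the butyrate library at 48 h and the untreated one at 72 h, *Kcnq1* stayed ahead in the untreated library at 48 h, and the order in the butyrate library at 72 h was within counting error. *Slc9a3* lay ahead of *Aqp8* and *Slc9a2* by the mean with this length, though not beyond counting error over *Aqp8* with butyrate at 72 h. *Slc12a2* remained first.

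The genes whose log2 levels over the 4 libraries, centred per gene, were closest to those of *Slc12a2* among the 10789 genes averaging at least 100 normalised counts were *Gprin3*, *Mbnl2*, *Nol10*, *Rad50* and *Rnf113a2*. *Gprin3*, the closest, had 437, 535, 461 and 503 counts beside 22123, 26846, 23188 and 25191 of *Slc12a2*, and a distance of 0.011 log2 units. With 4 libraries and so flat a profile, such likeness is a description only.

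A further 44 genes of the same pathways were examined, of which 30 were in the background. At 48 h their median log2 fold change was −0.06, with the interval above 0 for 13 and below 0 for 13, where 30.6% and 35.2% of background genes had such intervals. At 72 h it was −0.27, with 3 above and 20 below, against 27.7% and 28.6%. All 5 background genes of ENaC control, which do not all act on the channel in the same direction, were below 0 at 72 h, with a median of −0.60. *Prss8* and *Nedd4l*, given to complete this list, were at −0.53 and −0.23 at that time. *Hsd11b2*, the enzyme that shields the mineralocorticoid receptor from glucocorticoids, had 327 and 371 counts in the untreated libraries (48 h, then 72 h), and 450 and 116 in the butyrate ones. Its log2 fold changes were 0.29 (0.08 to 0.50) and −1.54 (−1.86 to −1.24), the latter the lowest of the 30. The receptor itself, *Nr3c2*, was at −0.28 and −0.82, and *Sgk1*, a kinase that raises ENaC at the surface, at 0.56 and −0.60. *Nr3c2* and *Sgk1*, like *Slc26a2*, *Slc4a2*, *Aqp1*, *Aqp11* and *Kcne1*, were picked after their values were seen.

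Other sodium-proton exchangers and scaffolds did not all share the 48 h direction of *Slc9a3*, and *Slc9a8*, named after its value was seen, was at −0.32 (−0.44 to −0.21). *Slc9a3r1* (NHERF1), a PDZ protein that binds NHE3 and CFTR, had 3439 and 4260 counts in the untreated and 4736 and 3342 in the butyrate libraries. Its log2 fold changes, 0.29 (0.23 to 0.35) and −0.22 (−0.29 to −0.16), had the signs of those of *Slc9a3*. *Pdzd3*, another PDZ protein of that family, had 91 and 82 counts in the untreated and 70 and 36 in the butyrate libraries, with log2 fold changes of −0.54 (−1.02 to −0.09) and −1.04 (−1.67 to −0.48).

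In chloride and bicarbonate transport, 5 of the 10 background genes were above 0 and 5 below at 48 h, and 3 above and 4 below at 72 h, the latter near the background shares of 27.7% and 28.6%. The sulphate-anion exchanger *Slc26a2* was at 0.43 and −0.38, and the basolateral chloride-bicarbonate exchanger *Slc4a2* at 0.37 and −0.26. *Slc12a4*, the potassium-chloride cotransporter KCC1, had 36 counts in each untreated library and 73 and 84 in the butyrate ones. Its log2 fold changes were 0.83 (0.25 to 1.47) and 1.33 (0.77 to 1.96), and it was the only one of the 30 at least 2-fold higher.

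The sodium-potassium pump drives both uptake and secretion from the basolateral membrane. Its beta subunit *Atp1b1* had 25208 and 28719 counts in the untreated and 29998 and 21340 in the butyrate libraries, with log2 fold changes of 0.08 (0.05 to 0.10) and −0.30 (−0.32 to −0.27).

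*Kcne3*, the subunit that holds KCNQ1 open in crypt cells, did not follow *Kcnq1*. The untreated libraries held 1322 and 1089 counts and the butyrate ones 1343 and 596, with log2 fold changes of −0.15 (−0.26 to −0.04) and −0.74 (−0.89 to −0.59). Per kb, *Kcnq1* was 1.22 and 1.30 times as high as *Kcne3* in the untreated libraries (48 h, then 72 h), and 1.697 and 2.67 times as high in the butyrate ones. The cardiac partner *Kcne1* had 1 count in a single library and 0 in the other 3. Of the water channels in this list, only *Aqp1* and *Aqp11* were in the background, with log2 fold changes of −0.17 and 0.35 at 48 h and −0.30 and −0.88 at 72 h.

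**Figure D5:**
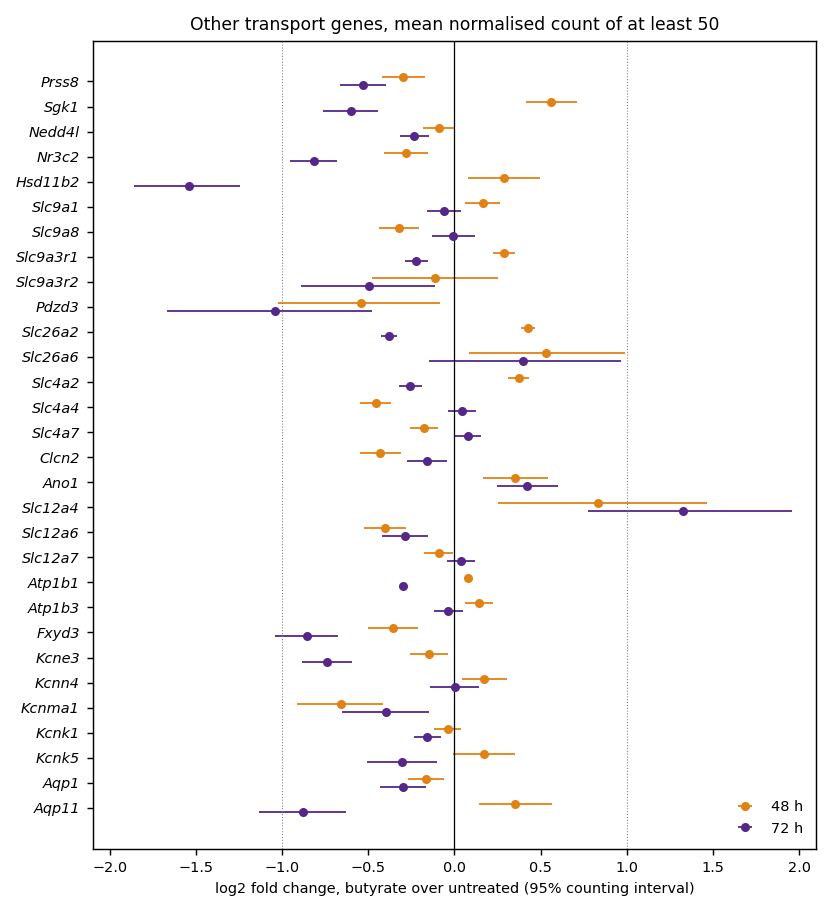
Log2 fold changes of butyrate over untreated at 48 h and 72 h for the 30 other transport genes in the background, with 95% counting intervals and grey lines at 2-fold. At 72 h, 20 of the 30 intervals lie below 0 and 3 above, and *Hsd11b2* has the lowest value, −1.54.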

How the data were processed

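The authors deposited whole-number counts per gene for 4 libraries of mouse colonoids, made from poly-A RNA. Per the submitters' processing notes and the study's methods, reads were quantified with kallisto 0.44.0 on GRCm38.p6 and summed to genes with tximport, so the counts are rounded estimates. The annotation release is not given in the sources used here. Of 36144 names, 26 had turned into dates and 2 were listed more than once.

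Size factors came from DESeq2 1.42.0 over the 13979 genes that exceeded 10 counts in 2 or more libraries, as in the methods, and TMM factors from edgeR 4.0.16 in R 4.3.3. Fold changes were computed in Python 3.11.15 (pandas 2.3.3, scipy 1.17.1) with a pseudocount of 1, and a call was a change of at least 2-fold at a mean normalised count of at least 50. Intervals were exact Clopper-Pearson (pairs of counts) or Poisson (single counts) intervals at the 95% level. The sources name no molecular identifiers, so reads may repeat a molecule, and the intervals and the floor (3 counts) describe counting alone. No p-values were computed. The scripts were tested on simulated data.

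Exon lengths and positions were taken from GENCODE M21 (GRCm38) for all 99 listed genes. The text names all 10 transporters, pathway genes changed at least 2-fold, 5 partner genes fixed by name and the 5 genes closest to *Slc12a2*, and says where another was chosen on its values. A further 2 genes chosen for the lists are not reported here. The transporters and gene lists were chosen with earlier results of these data known.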

Additional observations from a re-analysis of the deposited data

Results flagged for a closer look

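In 4 absorptive transporters the butyrate library lay above the untreated one at 48 h and below it at 72 h, so the groups at the 2 times moved in opposite directions. The change in log2 fold change, 72 h minus 48 h, was −1.48 for *Slc26a3*, −1.04 for *Slc9a2*, −1.09 for *Slc9a3* and −0.77 for *Scnn1a*. With 1 library per condition these differences were not tested. The summed colonocyte, enteroendocrine and general epithelial markers each had the same signs. The part of these markers in the transporter values was not tested.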

How the results depend on the processing

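Other size factors (TMM, total count, total count without mitochondrial genes, or no gene filter), a pseudocount of 5 and thinning to the smallest total left 234 of 240 fold changes of the transporters and 70 of 72 medians within counting error of the reported values. All 12 ratios, which only thinning could change, stayed within it too. With total count scaling, the median of the secretory genes was 0.301 at 72 h and 0.128 for 72 h over 48 h with butyrate, *Slc26a3* became 1 gene at least 2-fold lower from 48 h to 72 h with butyrate, and the median of all genes for untreated 72 h over 48 h moved by −0.08. With the looser filter of the methods, *Atp12a* entered and gave 1 gene at least 2-fold lower at 48 h and 1 higher over time in each treatment. At 1.5-fold, 2 transporters were higher at 48 h, 1 was lower at 72 h and 3 were lower over time with butyrate. With principal transcript lengths, an alternative chosen after seeing the data, the ranks per kb, by the mean of the 4 libraries, became 2 for *Slc26a3*, 3 for *Kcnq1*, 4 for *Slc9a3* and 6 for *Aqp8*. No value that was clear of 0 turned its direction. With 1 library per condition, untreated and butyrate libraries could be paired only by time, and each comparison of 1 library with another loses a side when either is left out. A fit additive in treatment and time, which pairs them so and has 1 residual degree of freedom, was not run, since it takes the difference between the times as error. Depth limits *Atp12a* most, with at most 37 counts in any library, and a pseudocount of 5 took its log2 fold change at 48 h from −2.24 to −1.34 and that over time with butyrate from 3.86 to 2.72.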
